A study of Mus musculus with 2 samples.

Results

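The 30 genes described here make, sense, move, store or export cholesterol, and they were taken by symbol from a list of the pathway. The rule uses no measured value, but the list was chosen with earlier results of these data known. All 30 are among the 26033 genes of both matrices. By role, 18 encode enzymes of synthesis, 3 the sensing machinery of the transcription factor SREBP-2, 5 proteins of lysosomal uptake, transport and storage, and 4 efflux transporters and the liver X receptors that govern them. Single-cell RNA was measured in cells sorted from whole mouse brain, with 1 library per genotype, and the labels do not give the age of the mice. Csf1rfl/fl mice, whose Csf1r gene is flanked by loxP sites, gave the control library. The mutant library is from Mrc1Cre:Csf1rfl/fl mice, which carry the same floxed gene and also Cre recombinase under Mrc1, a gene of border-associated macrophages (BAMs). Both groups therefore share the floxed allele, and the Cre allele and its action cannot be told apart. The sort pooled gates for mural cells with fibroblasts, endothelial cells, astrocytes, BAMs and microglia, and the number of animals pooled per library is not given in the sources used here. Every difference between the genotypes below describes these 2 libraries, has no replicate check and carries no p-value.

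Cholesterol is built from acetyl-CoA through the mevalonate pathway to squalene and lanosterol, and then through a series of sterol intermediates. When membrane sterol is low, the escort protein SCAP brings SREBP-2 to the Golgi, where it is cleaved and released to switch on the synthesis genes, and the INSIG proteins hold the complex back when sterol is plentiful. Lipoprotein cholesterol that enters by endocytosis is freed in lysosomes by acid lipase and passed on by NPC2 and NPC1, while SOAT1 esterifies the excess and ABCA1 and ABCG1 export it under control of the liver X receptors. The brain makes nearly all of its own cholesterol, much of it in oligodendrocytes for myelin and in astrocytes for supply to neurons, and macrophages are cells of high lipoprotein turnover.

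The control matrix held 8739 barcodes and 85716531 UMIs (unique molecular identifiers, each a captured molecule), with a median of 7998 per barcode, and the mutant matrix held 8735 barcodes and 82806348 UMIs, with a median of 8236. After filters 5609 control and 6123 mutant cells were kept, of which 720 and 921 lay in clusters left unnamed. Of all barcode sequences, 17 occurred in both libraries. Cell classes were rebuilt from marker genes and are written as "X-like". Control and mutant cells numbered 2772 and 2865 microglia-like, 629 and 1070 choroid plexus epithelium-like, 674 and 258 astrocyte-like, 355 and 142 BAM-like and 128 and 184 endothelial-like. A cluster led by Slc47a1, which encodes a membrane transporter, passed too few markers to be named and held 137 and 424 cells. Smaller classes were ependymal-like (48 and 87), monocyte or dendritic cell-like (41 and 64), fibroblast-like (45 and 56) and oligodendrocyte-like (53 and 20). A neuron-like cluster of 7 control and 32 mutant cells had under 20 cells in the control library and is not described. The labels name no gate for choroid plexus epithelium, ependymal cells or oligodendrocytes. No cluster could be named for mural cells, which the sort included: the pericyte-marked cluster carried markers of a second class too. The targeted gene Csf1r stood at 1516 and 1248 CPM in control and mutant BAM-like cells, and at 2361 and 1866 CPM in microglia-like cells, with UMIs read at the 3′ end, which may lie outside the deleted part and does not check the deletion.

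Levels are in CPM, which scales a gene's UMIs to 1000000 UMIs of its class and library, with exact Poisson 95% intervals. A gene was measured in a class when it had at least 50 UMIs over both libraries. It was past the size rule when the libraries' CPM differed by 1.5-fold or more either way and the exact conditional 95% interval of their ratio left out 1. Ratios are mutant over control, and paired values give the control first. Intervals of levels and ratios cover counting error only, not how animals or cells vary. Intervals of shares of cells are exact binomial 95% intervals that take each cell as a draw. They do not cover how animals vary, and cells are not replicates.

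As a sum, synthesis genes were highest in oligodendrocyte-like and astrocyte-like cells and lowest in microglia-like cells. Summed over the 18 enzymes, oligodendrocyte-like cells held 2098 CPM (2016 to 2182) and 1929 CPM (1793 to 2073), and astrocyte-like cells 1773 CPM (1742 to 1805) and 1659 CPM (1605 to 1715). Both classes stood apart from all others. Ependymal-like cells followed at 563 and 514 CPM, the Slc47a1-led cluster at 461 and 485 CPM, and choroid plexus epithelium-like cells at 456 and 458 CPM. Endothelial-like cells held 326 and 325 CPM, fibroblast-like cells 327 and 302 CPM, and monocyte or dendritic cell-like cells 283 and 352 CPM. BAM-like cells held 397 CPM (378 to 417) and 296 CPM (268 to 326). Microglia-like cells were the lowest class in both libraries, at 251 CPM (245 to 257) and 237 CPM (231 to 243). In the control their interval overlapped that of monocyte or dendritic cell-like cells (238 to 335). In the mutant the interval of BAM-like cells overlapped those of endothelial-like, fibroblast-like and monocyte or dendritic cell-like cells. In the control it overlapped that of fibroblast-like cells. Intervals of ependymal-like cells and the Slc47a1-led cluster overlapped in the mutant library, and those of the cluster and choroid plexus epithelium-like cells in both. Those of endothelial-like, fibroblast-like and monocyte or dendritic cell-like cells overlapped each other in both.

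**Figure D1:**
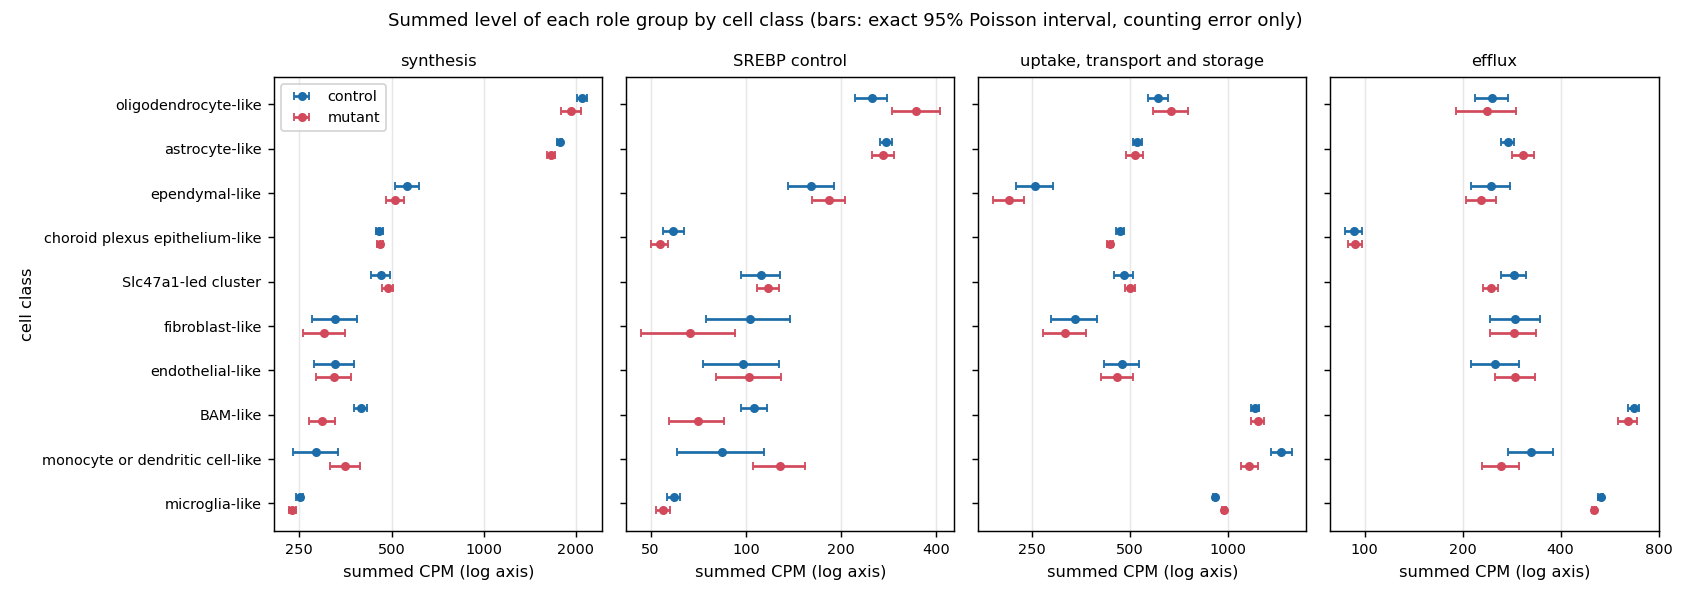
Summed CPM (x axis, log scale) of the 4 role groups in each cell class (y axis), with control in blue, mutant in red and exact 95% Poisson intervals as bars. Synthesis is highest in oligodendrocyte-like and astrocyte-like cells (1659 to 2098 CPM), while efflux is highest in BAM-like cells (671 and 644 CPM) and lowest in choroid plexus epithelium-like cells (92.6 and 93.7 CPM).

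Of the 18 enzymes, 17 had their highest mean level over both libraries in oligodendrocyte-like (10) or astrocyte-like (7) cells, and 8 had their lowest in microglia-like cells. For 4 of the 17 the highest class stood apart from the next in both libraries. Hmgcs1, which condenses acetoacetyl-CoA and acetyl-CoA at the entry to the mevalonate pathway, stood at 531 and 490 CPM in oligodendrocyte-like cells and at 191 and 179 CPM in astrocyte-like cells. In microglia-like cells the same gene stood at 25.1 and 23.4 CPM. Idi1, the isomerase that makes the second isoprene unit, stood at 205 and 227 CPM in oligodendrocyte-like and 120 and 112 CPM in astrocyte-like cells. Fdps, which makes farnesyl diphosphate, stood at 92.9 and 87.7 CPM in oligodendrocyte-like cells, and the next class was choroid plexus epithelium-like at 48.2 and 48.4 CPM. Msmo1, the C4-methyl sterol oxidase, went the other way: it reached 612 and 550 CPM in astrocyte-like cells against 296 and 268 CPM in oligodendrocyte-like cells. Oligodendrocyte-like and astrocyte-like cells thus shared high synthesis sums but differed in which enzymes carried them. Hmgcs1 and Idi1 were higher in the first class and Msmo1 in the second.

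The other early enzymes were spread more evenly. Acat2, the cytosolic thiolase, was highest in astrocyte-like cells at 18.5 and 16.8 CPM, with oligodendrocyte-like cells next at 19.6 and 10.3 CPM. The kinases Mvk and Pmvk were highest in oligodendrocyte-like cells, at 30.7 and 28.4 CPM and at 86.9 and 64.5 CPM. For Mvk the next class was astrocyte-like at 23.8 and 22.0 CPM, and for Pmvk it was choroid plexus epithelium-like at 51.3 and 52.9 CPM. The decarboxylase gene Mvd stood at 33.3 and 29.0 CPM in astrocyte-like and 22.2 and 31.0 CPM in oligodendrocyte-like cells. None of these 4 highest classes was apart from the next beyond the counting intervals.

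Among enzymes from squalene onward, Sqle, the squalene epoxidase, was the exception, as it was not highest in oligodendrocyte-like or astrocyte-like cells. It was highest in ependymal-like cells, at 148 and 146 CPM, with oligodendrocyte-like cells next at 114 and 90.3 CPM and overlapping intervals. Fdft1, the squalene synthase, stood at 137 and 126 CPM in oligodendrocyte-like and 126 and 103 CPM in astrocyte-like cells. Cyp51, the lanosterol demethylase, stood at 188 and 165 CPM and at 142 and 139 CPM in the same classes. Sc5d, the lathosterol oxidase, stood at 138 and 144 CPM and at 97.8 and 108 CPM. Dhcr7, which catalyses the last step of one branch, was highest in astrocyte-like cells at 69.2 and 73.8 CPM, with oligodendrocyte-like cells next at 34.9 and 43.8 CPM. Nsdhl, which works with Msmo1 in removing the C4 methyl groups, was highest in astrocyte-like cells at 61.6 and 53.7 CPM, as was its partner Hsd17b7 at 35.8 and 34.6 CPM. Oligodendrocyte-like cells came next for both, at 33.2 and 25.8 CPM and at 32.4 and 25.8 CPM. The sterol reductase gene Tm7sf2 was highest in astrocyte-like cells at 19.6 and 16.8 CPM, with fibroblast-like cells next at 9.14 and 7.40 CPM. Lss, the lanosterol synthase, stood at 16.2 and 20.6 CPM in oligodendrocyte-like and 11.6 and 16.1 CPM in ependymal-like cells.

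Ebp, the sterol isomerase, did not follow the other enzymes. It stood at 112 and 72.2 CPM in oligodendrocyte-like cells, 89.1 and 89.6 CPM in the Slc47a1-led cluster, 87.3 and 84.9 CPM in microglia-like cells and 32.4 and 43.0 CPM in astrocyte-like cells. Over the 21 clusters of at least 40 cells, on the log2 scale of CPM plus 1, its level had a Pearson r of -0.42 with the sum of the other synthesis genes. The remaining 17 enzymes had r from 0.66 (Acat2) to 0.96 (Fdft1). These correlations describe clusters that share 2 libraries and their depth, and clusters of 1 class are not independent.

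**Figure D2:**
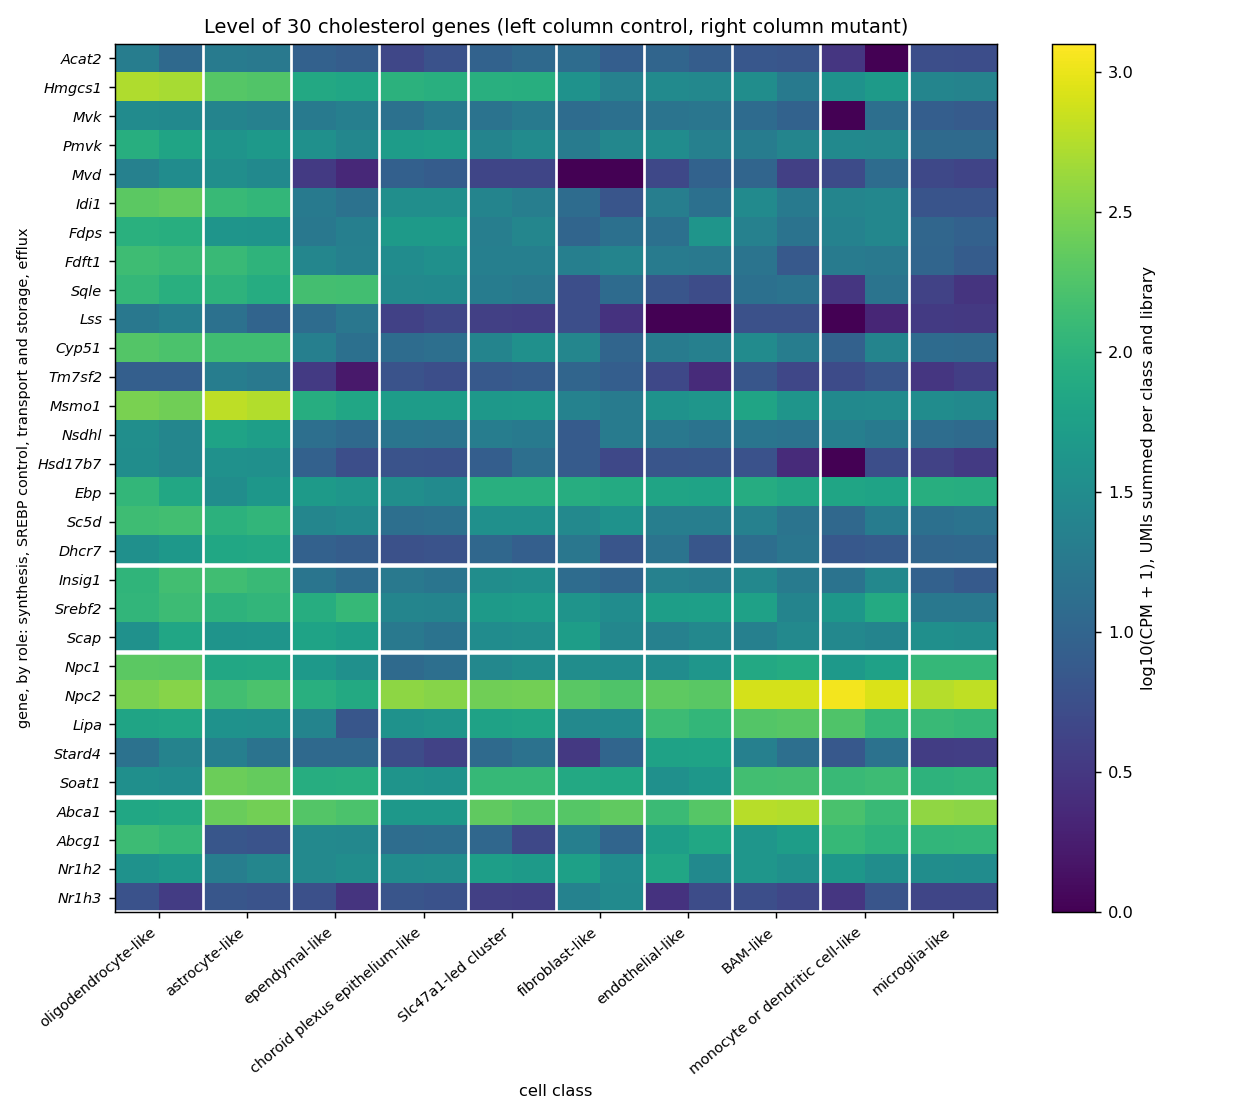
Level of each of the 30 genes (rows, by role, with white lines between roles) in each cell class, control in the left and mutant in the right column of a pair. The colour gives log10 of CPM plus 1. The upper block is brightest in oligodendrocyte-like and astrocyte-like cells, with Sqle also bright in ependymal-like cells at 148 and 146 CPM, and Npc2 and Abca1 are bright in BAM-like cells at 788 and 801 CPM and at 584 and 553 CPM.

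The control genes of SREBP-2 followed the enzymes in part. Insig1, whose product retains the SREBP complex in the endoplasmic reticulum and is itself a target of SREBP-2, stood at 139 and 124 CPM in astrocyte-like and 106 and 144 CPM in oligodendrocyte-like cells, against 8.27 and 6.52 CPM in microglia-like cells. Srebf2, which encodes SREBP-2, stood at 108 and 134 CPM in oligodendrocyte-like and 99.4 and 107 CPM in astrocyte-like cells, and was lowest in microglia-like cells at 16.5 CPM in both libraries. Ependymal-like cells were close behind oligodendrocyte-like and astrocyte-like cells for Srebf2, at 84.6 and 117 CPM. Over the 21 clusters r with the summed synthesis genes was 0.94 for Insig1 and 0.83 for Srebf2, and 0.26 for the escort gene Scap. Scap was highest in ependymal-like cells, at 61.4 and 53.5 CPM, with oligodendrocyte-like cells next at 35.8 and 67.1 CPM.

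Promoter sequence was examined because the synthesis enzymes and Insig1 varied together across classes. Promoters of 24 of the 30 genes were found in a RefSeq table of GRCm38.p6, each from 250 bases before to 50 bases after a start site. The short motifs were searched on both strands, and overlaps between motifs were allowed. CCAAT, the box bound by the SREBP partner NF-Y, was found in 14 of 15 synthesis genes with a promoter in the table, 2 of 3 SREBP control genes, 3 of 3 uptake, transport and storage genes and 0 of 3 efflux genes. At least 1 promoter held it for 41.1% of all 27025 genes listed, as did 37.4% of 32851 promoters. CACNCCAC, a core of the sterol regulatory element, was found in Acat2, Hmgcs1 and Insig1, against 7.12% of all genes (6.24% of promoters). GGGCGG, the Sp1 box, was found in 21 of the 24 genes against 38.2% of all genes (35.7% of promoters), and the E-box CACGTG in 6 of the 24 against 8.09% (7.15% of promoters). A match describes letters only. The stretches upstream of the annotated gene are shown for 3 genes with a wide spread between classes or libraries and, as an efflux gene without a CCAAT match, for Abca1. They are given 5′ to 3′ on the strand of the gene in GRCm38.p6, with capitals at CCAAT (read as ATTGG on the other strand) and at CACNCCAC.
Hmgcs1, chr13:119690101-119690350, plus strand: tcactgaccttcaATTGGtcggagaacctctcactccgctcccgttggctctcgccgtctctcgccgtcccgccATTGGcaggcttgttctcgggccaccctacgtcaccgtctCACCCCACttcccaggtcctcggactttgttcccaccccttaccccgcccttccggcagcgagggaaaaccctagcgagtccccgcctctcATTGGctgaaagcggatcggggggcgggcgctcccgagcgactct
Insig1, chr5:28071162-28071362, plus strand: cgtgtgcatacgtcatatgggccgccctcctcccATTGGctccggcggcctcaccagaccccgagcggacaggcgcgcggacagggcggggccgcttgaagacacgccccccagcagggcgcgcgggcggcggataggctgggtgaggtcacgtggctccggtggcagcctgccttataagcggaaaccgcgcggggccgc
Srebf2, chr15:82147019-82147180, plus strand: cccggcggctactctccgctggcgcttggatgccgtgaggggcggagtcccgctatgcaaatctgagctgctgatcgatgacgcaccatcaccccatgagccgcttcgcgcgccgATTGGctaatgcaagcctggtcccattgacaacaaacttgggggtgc
Abca1, chr4:53159896-53160145, minus strand: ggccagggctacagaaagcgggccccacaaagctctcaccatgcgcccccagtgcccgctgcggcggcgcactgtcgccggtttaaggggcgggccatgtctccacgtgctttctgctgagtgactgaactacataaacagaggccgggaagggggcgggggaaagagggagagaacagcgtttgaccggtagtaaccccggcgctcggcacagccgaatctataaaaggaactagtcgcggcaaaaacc
The Hmgcs1 stretch holds 3 CCAAT matches and 1 sterol element core between them. The Insig1 and Srebf2 stretches hold 1 CCAAT match each, and the sterol element core of Insig1 lies past the end of the stretch shown.

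The sum of the uptake, transport and storage genes was highest in the myeloid classes, where 2 of the 5 genes, Npc2 and Lipa, had their highest level. It was 1212 CPM (1179 to 1246) and 1237 CPM (1180 to 1296) in BAM-like cells, 1460 and 1165 CPM in monocyte or dendritic cell-like cells and 911 and 973 CPM in microglia-like cells. No other class was above 668 CPM in either library. Npc2, the soluble lysosomal sterol carrier, made up most of the sums in the myeloid classes. It stood at 1107 and 848 CPM in monocyte or dendritic cell-like cells, 788 and 801 CPM in BAM-like cells and 568 and 635 CPM in microglia-like cells, and was lowest in ependymal-like cells at 90.4 and 74.8 CPM. Lipa, the lysosomal acid lipase that frees cholesterol from its esters, stood at 186 and 196 CPM in BAM-like, 177 and 114 CPM in monocyte or dendritic cell-like and 127 and 116 CPM in microglia-like cells. For both genes the leading classes had overlapping intervals.

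The other 3 genes of this group were not highest in a myeloid class. Npc1, the membrane partner of NPC2, was highest in oligodendrocyte-like cells at 205 and 204 CPM, apart from microglia-like cells, the next class, at 114 CPM in both libraries. BAM-like cells held 74.2 and 80.2 CPM of it. Soat1, which esterifies cholesterol for storage in droplets, was highest in astrocyte-like cells at 254 and 230 CPM, apart from BAM-like cells at 143 and 147 CPM. Stard4, a cytosolic sterol carrier and an SREBP-2 target, was highest in endothelial-like cells at 60.8 CPM (41.8 to 85.3) and 61.3 CPM (44.3 to 82.5). Microglia-like cells held 2.65 and 2.73 CPM of Stard4. The next class for this gene, oligodendrocyte-like, held 13.6 and 23.2 CPM, with intervals up to 44.1 that overlapped those of the endothelial-like cells.

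Efflux was led by a single gene in macrophages. Abca1, the transporter that loads cholesterol onto lipid-poor apolipoproteins, stood at 584 CPM (561 to 608) and 553 CPM (515 to 593) in BAM-like cells, apart from microglia-like cells at 385 CPM (378 to 393) and 361 CPM (354 to 368). It was lowest in choroid plexus epithelium-like cells, at 44.2 and 44.5 CPM. Abcg1, which exports sterol to formed lipoproteins, was divided differently. It was highest in oligodendrocyte-like cells at 134 and 116 CPM, with microglia-like cells at 110 and 111 CPM and monocyte or dendritic cell-like cells at 119 and 101 CPM. Astrocyte-like cells, which held 243 and 272 CPM of Abca1, held 5.84 and 5.14 CPM of Abcg1. Of the liver X receptor genes, Nr1h3 was highest in fibroblast-like cells at 22.9 and 29.6 CPM, apart from the next class, astrocyte-like, at 5.84 and 5.14 CPM. The gene was below 50 UMIs in the fibroblast-like cells, whose make-up differed between the libraries. Fibroblast markers summed there to 14269 and 49026 CPM, choroid plexus epithelium markers to 20797 and 2141 CPM and pericyte markers to 4560 and 1195 CPM. Nr1h2 had its highest mean in the Slc47a1-led cluster at 53.1 and 47.8 CPM, with endothelial-like cells next at 68.1 and 28.5 CPM, and no class stood apart.

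In the plot of the 21 clusters, the microglia-like and BAM-like ones lay at the upper left, with efflux sums of 456 to 664 CPM at synthesis sums of 228 to 372 CPM. Abca1, Abcg1, Npc2 and Lipa had r of -0.39, -0.60, -0.53 and -0.55 with the summed synthesis genes. The other transport, storage and efflux genes did not all run that way: Stard4 had r of 0.58, Soat1 0.26, Nr1h3 0.057, Npc1 -0.08 and Nr1h2 -0.35. Choroid plexus epithelium-like clusters were low for efflux at middle synthesis levels.

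**Figure D3:**
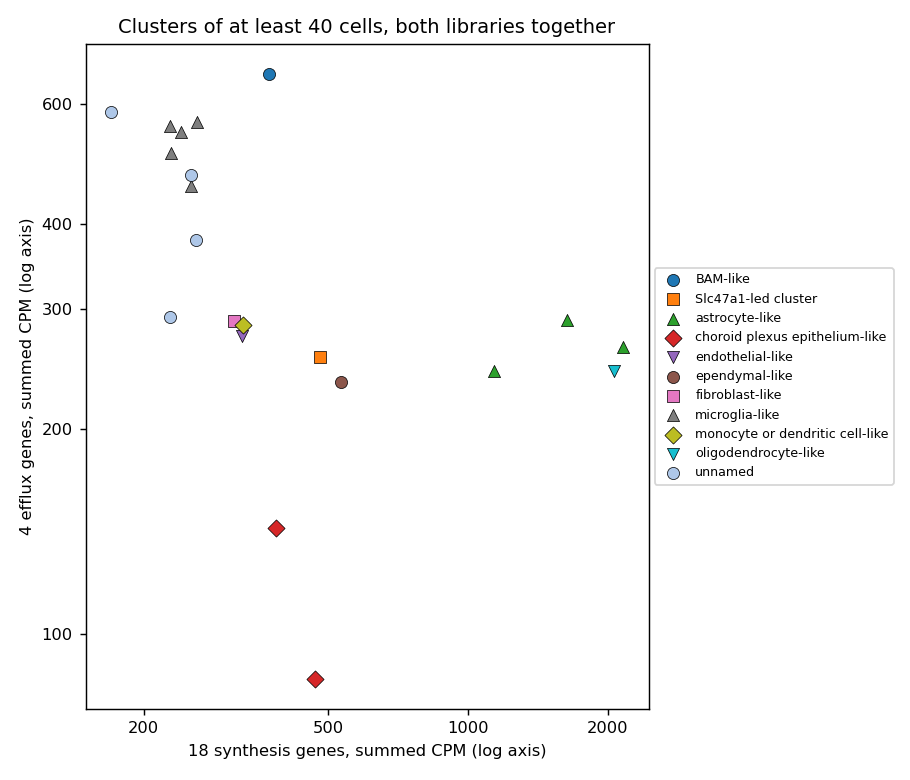
Summed CPM of the 18 synthesis genes (x axis, log scale) against that of the 4 efflux genes (y axis, log scale) in each of the 21 clusters of at least 40 cells, both libraries together, with colour and shape giving the class. The 3 astrocyte-like clusters lie at 1137, 1629 and 2154 CPM of synthesis, the 5 microglia-like clusters lie between 228 and 260 CPM, and the BAM-like cluster has the highest efflux sum at 664 CPM.

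Classes were not uniform inside. Of 3 astrocyte-like clusters with at least 40 cells, cluster 6 held 2217 and 1880 CPM of synthesis genes in the control and mutant, cluster 8 held 1612 and 1684 CPM and cluster 18 held 1148 and 1120 CPM. Msmo1 carried much of that gap, at 837, 544 and 219 CPM in the 3 clusters over both libraries. Cyp51 ran the other way, at 130, 141 and 163 CPM. Among the 5 microglia-like clusters synthesis differed little, but Npc2 stood at 454 CPM in cluster 0 and 724 CPM in cluster 10, which was led by Ccl3, Lpl and Clec7a. Abcg1 was also highest in cluster 10 of the 5, at 135 CPM against 97.8 to 123 CPM, and Lipa at 142 CPM against 104 to 120 CPM. In the choroid plexus epithelium-like class, cluster 7 held 375 CPM of Npc2 and 38.4 CPM of Abca1, and cluster 9 held 217 and 84.8 CPM. The genotypes filled the microglia-like clusters unequally, with 685 control and 129 mutant cells in cluster 0 and 437 and 1200 in cluster 2.

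Between the genotypes, BAM-like cells were the class in which synthesis genes differed most often. Of the 30 genes 24 were measured in them, 7 were lower in the mutant and 0 higher past the size rule. Over all 8762 genes measured in this class, 3.20% were lower and 2.61% higher by the same rule. The summed synthesis level had a mutant over control ratio of 0.745 (0.668 to 0.830), and the summed SREBP control genes, at 106 and 70.3 CPM, one of 0.662 (0.527 to 0.824). The uptake, transport and storage sum, by contrast, had a ratio of 1.02 (0.966 to 1.08) and the efflux sum, at 671 and 644 CPM, one of 0.959 (0.889 to 1.03). The median log2 ratio of CPM plus 1 was -0.22 over the measured members and -0.00068 over all measured genes. That synthesis genes were lower in these cells was seen in earlier work on the same matrices and is no independent observation.

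Srebf2 had the lowest ratio of the measured members. Its levels were 57.8 CPM (50.7 to 65.6) and 23.9 CPM (16.6 to 33.4), and their ratio 0.414 (0.280 to 0.594), with no overlap between the intervals of the libraries. UMIs of it were found in 135 of 355 control and 28 of 142 mutant BAM-like cells, or 38.0% and 19.7%, at median depths of 7738 and 7862 UMIs. No class lacked the gene. In microglia-like cells, where its level was lowest, the shares were 14.1% and 13.5% at median depths of 8694 and 8564 UMIs. With every cell thinned to 2000 UMIs, which left out 32 control and 7 mutant BAM-like and 105 and 147 microglia-like cells, the BAM-like shares were 8.67% (5.84 to 12.3) and 3.70% (1.21 to 8.43), with intervals that overlapped, and the microglia-like shares were 3.79% and 3.35%.

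The 5 enzymes past the rule ran from the mevalonate steps to the late sterol steps. Hmgcs1 stood at 32.5 and 17.6 CPM, a ratio of 0.541 (0.338 to 0.833). Idi1 stood at 29.6 and 17.6 CPM, a ratio of 0.593 (0.370 to 0.918). For Fdft1 the levels were 14.7 and 6.33 CPM and the ratio was 0.431 (0.188 to 0.873). The late enzymes Cyp51, at 30.6 and 19.7 CPM, and Msmo1, at 63.4 and 40.1 CPM, had ratios of 0.644 (0.411 to 0.975) and 0.633 (0.467 to 0.845). Stard4 stood at 21.2 and 12.7 CPM, a ratio of 0.597 whose interval (0.338 to 0.9995) barely left out 1. Another 8 measured enzymes were not past the rule. Among them were Pmvk at 18.8 and 24.6 CPM, with the highest ratio of the group, 1.31 (0.853 to 1.98), Sqle at 12.8 and 14.1 CPM and Ebp at 81.7 and 71.0 CPM. The median log2 ratio of CPM plus 1 over the 13 measured enzymes was -0.55, and the enzymes just named lay above it. Scap stood at 21.7 and 28.1 CPM, a ratio of 1.30 (0.871 to 1.90) with an interval that held 1, and Insig1 at 26.7 and 18.3 CPM, a ratio of 0.684 (0.428 to 1.06).

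Of the uptake, transport, storage and efflux genes measured in BAM-like cells, only Stard4 was past the rule. Npc2, Lipa, Npc1 and Soat1 had ratios of 1.02, 1.05, 1.08 and 1.03, with interval bounds between 0.864 and 1.34. Abca1 had a ratio of 0.947 (0.872 to 1.03) and Abcg1, at 41.2 and 52.0 CPM, one of 1.26 (0.949 to 1.67). Nr1h2, at 41.7 and 35.2 CPM, had the lowest ratio of the efflux genes, 0.844 (0.603 to 1.16). The 6 members not measured were Acat2, Mvd, Lss, Tm7sf2, Hsd17b7 and Nr1h3.

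**Figure D4:**
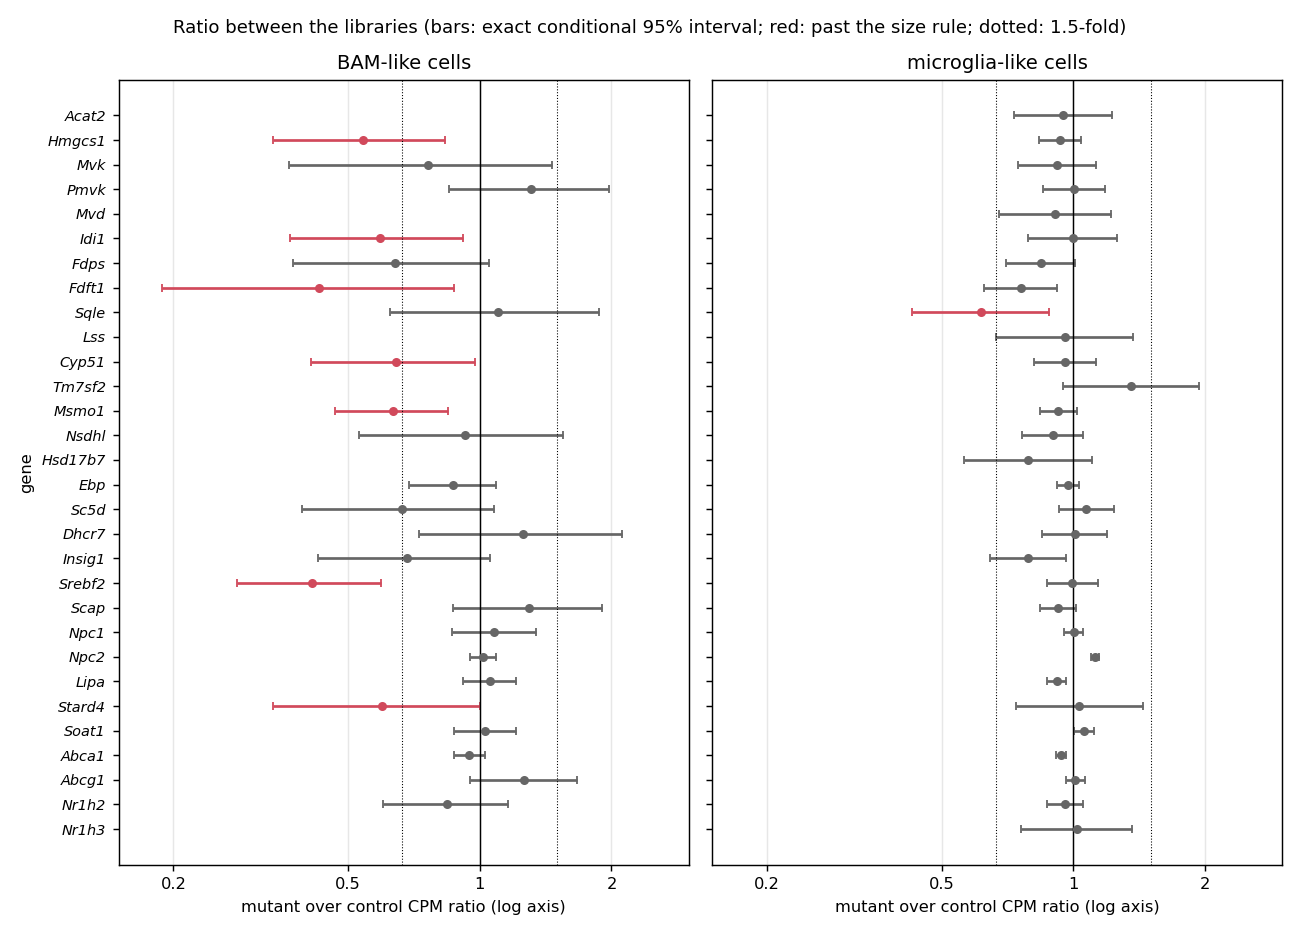
Mutant over control CPM ratio (x axis, log scale) of each gene (y axis) measured in BAM-like and microglia-like cells, with exact conditional 95% intervals as bars, red for genes past the size rule, dotted lines at 1.5-fold and no point for genes below 50 UMIs. In BAM-like cells 7 genes are red and all lie below 1, with Srebf2 lowest at 0.414, and in microglia-like cells only Sqle is red, at 0.615.

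Other values also differed between the libraries, in BAM-like cells and in other classes. In BAM-like cells the 10 astrocyte markers summed to 250 and 127 CPM, and the 8 oligodendrocyte markers to 126 and 122 CPM. Fdft1, Hmgcs1, Msmo1 and Sqle were at under 10% of their level in another class. If astrocyte RNA reached these droplets in proportion to its markers, it carried 20.5 and 10.3 CPM of synthesis genes. The summed synthesis ratio without it was 0.758, and 0.741 with oligodendrocyte markers as the source. This proportion is an assumption and was not tested. The BAM markers summed to 14213 and 12341 CPM, the microglial markers to 6604 and 5917 CPM, endothelial markers to 18.5 and 71.7 CPM, and 4 pituitary markers to 313 and 0.703 CPM. A set of 10 immediate early genes, which respond to tissue handling among other stimuli, summed to 1462 and 955 CPM. In microglia-like cells, with a summed synthesis ratio of 0.947, astrocyte markers summed to 441 and 296 CPM and pituitary markers to 121 and 2.80 CPM. Endothelial markers summed there to 53.0 and 39.5 CPM and the immediate early genes to 565 and 451 CPM. The part of the endothelial, pituitary and immediate early differences in the BAM-like result was not tested. Median depth of BAM-like cells was close between the libraries, as given above. Their mitochondrial UMIs were at 4.59% and 4.21% and ribosomal protein UMIs at 8.42% and 9.47%. Per cell, the median summed synthesis level was 331 and 241 CPM and the 90th percentile 866 and 613 CPM, and 16.3% and 21.1% of cells had no synthesis UMI.

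BAM-like cells were also divided at 2000 CPM of summed MHC class II genes, a split chosen after the data were seen, with 41 cells within 2-fold of that level. The 295 control and 96 mutant cells at or below it held 442 and 305 CPM of synthesis genes, a ratio of 0.691 (0.602 to 0.791), and 64.1 and 21.6 CPM of Srebf2, a ratio of 0.337 (0.196 to 0.548). The 60 control and 46 mutant cells above it held 289 and 283 CPM of synthesis genes, a ratio of 0.979 (0.809 to 1.18). The efflux sum had a ratio of 1.11 (1.01 to 1.21) in the first subset and 0.749 (0.654 to 0.855) in the second, where Abca1 stood at 552 and 407 CPM. Whether the subsets differ in their response was not tested.

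**Figure D5:**
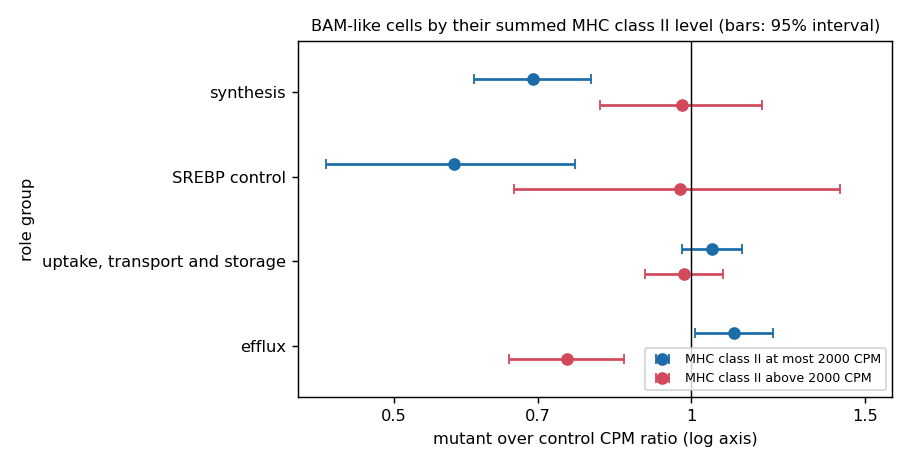
Mutant over control ratio of summed CPM (x axis, log scale) for the 4 role groups (y axis) in BAM-like cells at most (blue) and above (red) 2000 CPM of MHC class II genes, with exact conditional 95% intervals as bars. Synthesis lies at 0.691 in the first and 0.979 in the second subset, and efflux at 1.11 and 0.749.

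Microglia-like cells, the class with the most UMIs in all, had all 30 genes measured, with 1 lower and 0 higher past the rule. Over 12211 genes of this class, 4.52% were lower and 1.51% higher. The lower gene was Sqle, with 3.08 and 1.89 CPM and a ratio of 0.615 (0.427 to 0.878). In proportion to the astrocyte markers in these cells, which summed to 441 and 296 CPM, astrocyte RNA would carry 2.01 and 1.19 CPM of Sqle, and the ratio without it was 0.653. Tm7sf2, at 2.08 and 2.80 CPM, had the highest synthesis ratio, 1.35 (0.948 to 1.93). Insig1, at 8.27 and 6.52 CPM, had a ratio of 0.788 (0.645 to 0.962), and Srebf2 one of 0.995 (0.872 to 1.14). Npc2 had a ratio of 1.12 (1.09 to 1.14), Lipa of 0.916 (0.873 to 0.961), Abca1 of 0.937 (0.911 to 0.963) and Nr1h3 of 1.02 (0.758 to 1.36). The summed synthesis ratio was 0.947 (0.915 to 0.979). Without the synthesis RNA that the astrocyte markers would carry, that ratio was 0.994. With oligodendrocyte markers as the source it was 0.949. The astrocyte proportion is assumed and would carry more RNA of the genes Fads2 and Me1 than was measured. The subtractions for Sqle and for the sum may therefore be too large, and the part of astrocyte RNA in these ratios was not tested.

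Choroid plexus epithelium-like and astrocyte-like cells had all 30 genes measured and 0 past the rule in either direction. Over 10705 genes of the first class 1.35% were lower and 1.91% higher, and over 10813 genes of the second 1.65% and 5.51%. In choroid plexus epithelium-like cells the ratios ran from 0.738 (0.492 to 1.11) for Stard4 to 1.40 (0.961 to 2.08) for Acat2. In astrocyte-like cells they ran from 0.668 (0.385 to 1.10) for Lss, close to the limit of the rule, to 1.33 (1.03 to 1.70) for Ebp. The summed synthesis ratio was 1.0 (0.970 to 1.04) in the first and 0.936 (0.901 to 0.971) in the second class. Within astrocyte-like cells it was 0.848 (0.790 to 0.910) in cluster 6 and 1.04 (0.994 to 1.10) in cluster 8. The Slc47a1-led cluster had 25 genes measured and 0 past the rule, with 3.04% of 10072 genes lower and 2.78% higher. Its ratios ran from 0.798 (0.444 to 1.49) for Dhcr7 to 1.69 (0.925 to 3.33) for Hsd17b7, and Abca1, at 222 and 190 CPM, had 0.858 (0.763 to 0.967).

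In endothelial-like cells 8 genes were measured, 1 was lower and 0 higher, against 4.45% lower and 4.82% higher of 5037 genes. The lower gene was Nr1h2, at 68.1 and 28.5 CPM, a ratio of 0.418 (0.230 to 0.740). Abca1, at 129 and 190 CPM, had the highest ratio, 1.47 (1.09 to 1.99), just inside the limit of the rule. Srebf2 had 1.04 (0.627 to 1.74), Stard4 1.01 (0.626 to 1.64) and Lipa 0.838 (0.601 to 1.17).

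The 4 smallest of the classes described held 20 to 87 cells per library and were not compared throughout. In monocyte or dendritic cell-like cells 9 genes were measured, with 1 higher and 1 lower, where 7.32% of 4483 genes were higher and 5.06% lower. Srebf2 was higher, at 43.1 and 76.9 CPM, a ratio of 1.78 (1.08 to 3.07), and Lipa lower, at 177 and 114 CPM, a ratio of 0.647 (0.481 to 0.873). Summed markers of other types differed in these cells too: choroid plexus epithelium 2030 and 12416 CPM, BAM 1109 and 516 CPM, and lymphocyte 977 and 1477 CPM. In oligodendrocyte-like cells 21 genes were measured, with Scap higher, a ratio of 1.87 (1.10 to 3.13), and Ebp lower, a ratio of 0.647 (0.414 to 0.979). Choroid plexus epithelium markers summed there to 7673 and 39586 CPM and astrocyte markers to 1691 and 410 CPM. The part of these markers in the calls of both classes was not tested. Of 5030 genes there, 3.54% were higher and 6.44% lower. Neither the 15 genes measured in ependymal-like cells nor the 4 in fibroblast-like cells held 1 past the rule, with 2.62% higher and 4.63% lower of 7209 genes and 7.87% each way of 3901 genes. In ependymal-like cells Srebf2, at 84.6 and 117 CPM, had the highest ratio, 1.39 (1.05 to 1.85).

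A further 44 genes of the pathway were listed beside the members. In BAM-like cells 30 of them were measured, 1 was higher and 1 lower, against 2.61% and 3.20% of all genes. Gramd1b, a carrier of cholesterol from the plasma membrane to the endoplasmic reticulum, stood at 49.4 and 148 CPM, a ratio of 3.01 (2.47 to 3.66). Fasn, the fatty acid synthase, stood at 11.8 and 2.11 CPM (49 and 3 UMIs), or 0.179-fold (0.0356 to 0.554). Microglia-like cells had 39 of them measured, 0 higher and 5 lower (1.51% and 4.52% of all genes): Scd1, Elovl6, Fads2 and Me1 of the fatty acid arm, with ratios of 0.483, 0.642, 0.358 and 0.633, and Ch25h, which makes 25-hydroxycholesterol, at 2.94 and 0.364 CPM, with ratio 0.124 (0.0573 to 0.240). All 5 stood below 4 CPM in both libraries. In proportion to the astrocyte markers, which also differed between the libraries (441 and 296 CPM), astrocyte RNA would carry 5.69 and 3.95 CPM of Fads2 and 2.27 and 1.42 CPM of Me1, more than was measured. For Scd1 it would carry 1.31 and 1.18 CPM against 1.43 and 0.692 CPM measured, and for Elovl6 1.70 and 1.20 CPM against 3.01 and 1.93 CPM. Ch25h had no UMI in astrocyte-like cells. In BAM-like cells Ch25h went the other way, at 4.82 and 13.4 CPM, a ratio of 2.77 (1.40 to 5.48). It had 20 and 19 UMIs there and so was not measured. None was past the rule of 41 measured in astrocyte-like cells, 39 in choroid plexus epithelium-like cells, 37 in the Slc47a1-led cluster and 19 in endothelial-like cells. In the smallest classes 3 were lower of 28 in oligodendrocyte-like cells (Fasn, Scd1 and Acss2), against 6.44% of all genes, and 2 higher of 16 in monocyte or dendritic cell-like cells (Acly and Pdss2), against 7.32%. Mylip was the 1 lower of 29 in ependymal-like cells, against 4.63%, and Osbpl8 the 1 lower of 10 in fibroblast-like cells, against 7.87%.

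Some of these counts may hold reads of another gene. In the GENCODE annotation of GRCm38, Fdft1 overlaps Ctsb, Cyp51 overlaps Akap9, Mvd overlaps Gm20388 and Npc1 overlaps Rmc1 on the opposite strand, Tm7sf2 overlaps Vps51 and Fdps overlaps Gm43738 on the same strand, and Nr1h2 has the annotated pseudogene Nr1h2-ps. How the authors counted such reads is not given in the sources used here.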

How the data were processed

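Cells sorted from whole brain were run on the 10x Chromium platform with 3′ v3.1 chemistry, per the labels' protocols. The deposited matrices hold raw UMI counts, written by Cell Ranger 7.1.0 per the file headers. The submitters' processing notes name Cell Ranger, GRCm38.p6 and mm10. How introns were counted, cells called or free RNA corrected is not given in the sources used here.

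Cells needed 500 or more detected genes and no more than 10% mitochondrial UMIs. Scrublet in scanpy 1.11.5 was run on all deposited barcodes of each library. Its expected doublet fraction was set to 0.008 for each 1000 barcodes of the library. It called doublets at 2.62% (control) and 2.52% (mutant) of barcodes, which were left out. Cells were scaled to 10000 counts, log-transformed and clustered (2000 variable genes, 30 components, 15 neighbours, Leiden resolution 1) without the 30 members and without mitochondrial or sex-linked genes. This gave 24 clusters. A cluster was named when 3 or more markers of a class each reached 25% of its cells and 25% of the CPM in their highest cluster. Clusters with competing markers, with leading genes of another class or with low depth stayed unnamed, and these rebuilt classes may differ from the study's own. UMI counts were summed per class and library into CPM. The interval and size rule were tried on simulated Poisson counts. These hold counting error only, so they cannot check how cells, animals or libraries vary. Cells are not replicates, so no test was run. Classes with at least 100 cells in each library were compared throughout, and those with at least 20 described. Named genes were the members past the size rule and, per role group, those with the highest and lowest ratio. The members, gene lists and markers were chosen with earlier results of these data known. Alternatives covered scaling, cell weights, filters, doublets, resolution, gating, thinning and the UMI minimum.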

Additional observations from a re-analysis of the deposited data

Results flagged for a closer look

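Srebf2 differed between the libraries in opposite directions in a pair of myeloid classes, each past the size rule. In BAM-like cells the mutant over control CPM ratio was 0.414 (0.280 to 0.594), and in monocyte or dendritic cell-like cells it was 1.78 (1.08 to 3.07). The second class held 41 control and 64 mutant cells and an interval that came close to 1. With 1 library per genotype, the difference between the classes was not tested.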

How the results depend on the processing

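With 1 library per genotype, counting intervals, and binomial ones for shares of cells, are the only error given. No paired analysis was possible because each group has a single library.

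The count of 7 members past the rule in BAM-like cells stayed between 6 and 8 under 9 alternatives, was 4 with equal weight per cell and 2 with a minimum of 200 UMIs. It was 0 with cells thinned to 2000 UMIs, where 6 members were measured. The genes counted were not always the named 7. Idi1 and Stard4 were not past the rule at Leiden resolution 2 or in the subset of at most 2000 CPM of MHC class II genes. Cyp51 and Stard4 were not past it with cells gated one by one. In that MHC class II subset Fdps was past the rule, at a ratio of 0.363 (0.152 to 0.752). By fold and interval alone, whatever the UMI number, Srebf2 in BAM-like cells held under 10 of 10 alternatives (0.337 to 0.505; thinned 0.399, 0.137 to 0.956, but below 50 UMIs), Hmgcs1 and Msmo1 under 9, Fdft1 under 8, Cyp51 under 7, Idi1 under 6 and Stard4 under 3. Fdft1 reversed to 1.20 (0.194 to 5.60) under thinning. The summed synthesis ratio in BAM-like cells was 0.686 to 0.773 over 9 alternatives.

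In microglia-like cells the count was 0 with equal weight per cell, at least 1000 genes, thinning or a 200 UMI minimum. In astrocyte-like cells it was 1 with trimmed-mean scaling, equal weight per cell, at most 20% mitochondrial UMIs or without the cell with the most UMIs, and 2 with thinning. In choroid plexus epithelium-like cells it was 1 with equal weight per cell or thinning. In the Slc47a1-led cluster it was 1 with equal weight per cell, without the cell with the most UMIs or with a minimum of 20 UMIs. In endothelial-like cells Nr1h2 kept a ratio of 0.464 (0.236 to 0.878) with at least 1000 genes and 0.311 (0.0988 to 0.848) with thinning, but was below 50 UMIs, and the 1 gene counted there was another one, higher in the mutant. The count was 2 with trimmed-mean scaling or a 20 UMI minimum, and 0 with 200. The cause was not tested. Gating cells one by one gave no Slc47a1-led cluster and so no value for it.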
